A study of Equus asinus with 2 samples.

Results

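Distal tubule cells of the fetal donkey mesonephros were taken as the cell barcodes of the 4-week library in which the transporter genes SLC12A1 and SLC12A3 together gave at least 3 UMIs and at least 5 of every 10000 UMIs. A UMI is a sequence tag that marks 1 captured RNA molecule, and a cell barcode marks the RNA of 1 droplet. The rule held for 235 of the 8457 barcodes with at least 1000 UMIs (2.78%, Clopper-Pearson 95% interval 2.44 to 3.15), out of 8938 barcodes deposited. The series holds 2 droplet single-cell RNA libraries of Equus asinus, the first of mesonephros with gonad at 4 weeks of gestation and the second of ovary at 8 weeks. No genotype, strain or treatment is named for either stage, nor is the number of fetuses behind a library. Each stage is 1 library, so no test was run, and every interval given here covers counting error only. The same rule at 8 weeks held for 1 of 13172 barcodes (0.00759%, interval up to 0.0423%), which had 21 UMIs of SLC12A1 and 0 of SLC12A3.

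The mesonephros is the kidney of the embryo between the pronephros and the lasting metanephros, and its tubules lie beside the forming gonad. In a nephron, SLC12A1 encodes NKCC2, the cotransporter that takes up sodium, potassium and chloride in the thick ascending limb of the loop of Henle. SLC12A3 encodes NCC, the thiazide-sensitive sodium and chloride cotransporter of the distal convoluted tubule, the segment that follows. In the adult kidney the cells of these segments carry one transporter or the other, and the distal convoluted tubule is also known for its uptake of calcium and magnesium.

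The 2 transporters were almost never found in the same barcode. Of the 235 barcodes, 97 had UMIs of SLC12A1 and not of SLC12A3, 130 had the reverse, and 8 had UMIs of both. A barcode was put on the SLC12A1 side where SLC12A3 made up at most 20% of its transporter UMIs, and on the SLC12A3 side where it made up at least 80%. The SLC12A1 side held 100 barcodes (42.6%, 36.1 to 49.1), the SLC12A3 side held 131 (55.7%, 49.1 to 62.2), and 4 lay between (1.70%, 0.466 to 4.30). None of the 235 met the rule on each gene alone. The 4 mixed barcodes had 1 and 3, 2 and 6, 2 and 2, and 2 and 1 UMIs of SLC12A1 and SLC12A3, in barcodes of 2343, 3410, 4577 and 5314 UMIs. Among the 97 barcodes with at least 10 transporter UMIs, 56 lay on the SLC12A1 side, 41 on the SLC12A3 side and 0 between. Which side was the larger thus depended on the UMI minimum.

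**Figure D1:**
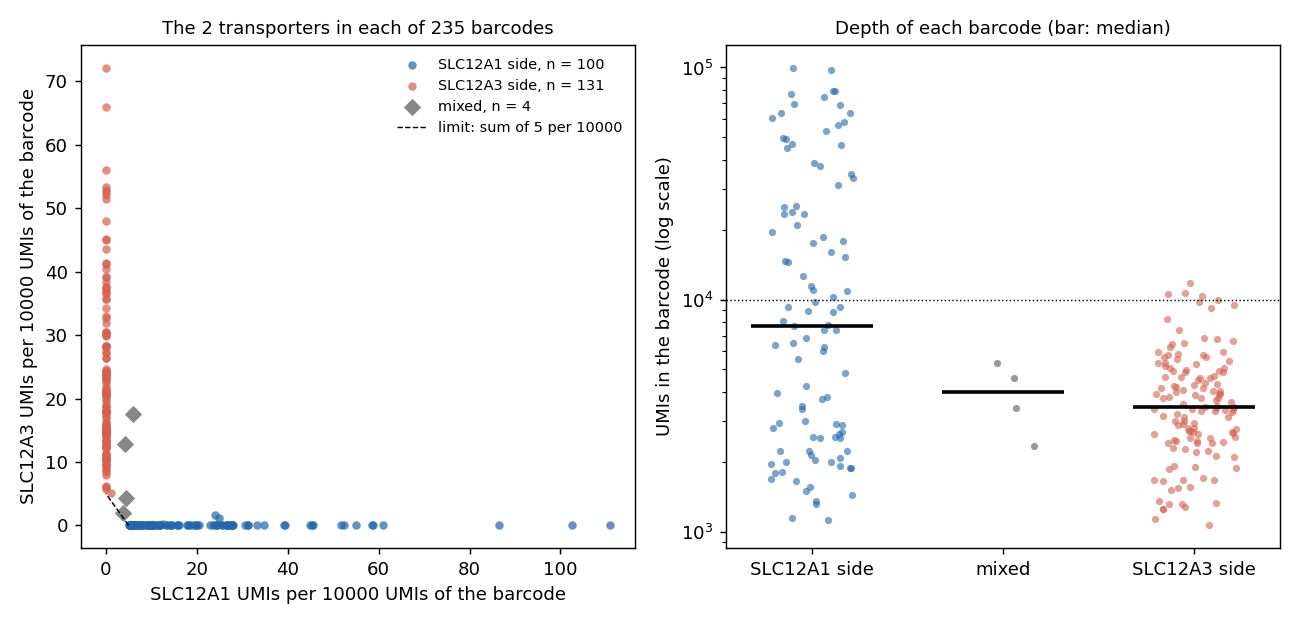
Left, UMIs of SLC12A1 (horizontal axis) and of SLC12A3 (vertical axis) per 10000 UMIs of the barcode, 1 point per barcode, with the limit of the rule as a dashed line; points lie along the 2 axes and only 4 are mixed. Right, UMIs per barcode on a log scale with the median as a bar and 10000 UMIs as a dotted line; the SLC12A1 side reaches 99936 UMIs and the SLC12A3 side 11827.

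The split fixes the level of each transporter on the opposite side to a low value, so these levels are given as a description. SLC12A3 stood at 1.53 CPM (UMIs of the gene per 1000000 UMIs, summed over the barcodes of a group) on the SLC12A1 side, from 3 barcodes with 1 UMI each. SLC12A1 stood at 1.92 CPM on the SLC12A3 side, from 1 UMI. Endothelial barcodes, defined by PECAM1, CDH5 and KDR in the same manner, had 3.65 CPM of SLC12A3 and 1.62 CPM of SLC12A1. The members held 2377 of the 3322 SLC12A1 UMIs of the library (71.6%) and 1125 of the 1715 SLC12A3 UMIs (65.6%). How efficiently the 2 transcripts are captured is unknown, so their levels are not compared with each other.

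Near the limit of the rule, barcodes on both sides of it carried WFDC2. The 12 members with 5 to 6 transporter UMIs per 10000 had 311 CPM of WFDC2, and the 10 other barcodes with 4 to 5 per 10000 and at least 3 UMIs had 389 CPM. In all, 109 of the other barcodes had at least 3 transporter UMIs (median 43301 UMIs per barcode), 778 had 1 or 2, and 7335 had 0.

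The sides differed in depth, which bears on each comparison between them. The members had a median of 3932 UMIs (1065 to 99936), against 8424.5 in the other 8222 barcodes and 8291 in the whole library. The SLC12A3 side had a median of 3460 UMIs and 4 of 131 barcodes over 10000. The SLC12A1 side had a median of 7725 UMIs and 43 of 100 barcodes over 10000, and those 43 gave 1746760 of its 1967179 UMIs. For many genes, levels on the SLC12A1 side are therefore also given apart for its shallower and deeper barcodes. The shallower ones are its 57 barcodes of up to 10000 UMIs (median 2699), and the deeper ones the other 43 (median 34835). This limit was chosen after the data were seen. Where a level is given for the SLC12A1 side without this division, it is of the whole side, and the deeper barcodes weigh most in it.

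WFDC2, the epithelial secreted protein HE4 that was named as a marker and not used by the rule, stood at 688 CPM (656 to 721) in the members and 116 CPM in the other barcodes, 5.93-fold higher (5.64 to 6.24). It was found in 180 of 235 members. With each barcode thinned to 1000 UMIs, 37% of members and 7.44% of other barcodes had a WFDC2 UMI, against 1.67% of endothelial barcodes. The SLC12A1 side had 718 CPM and the SLC12A3 side 580.0 CPM, so the marker was high on both. UMOD, the uromodulin gene that marks the mature thick ascending limb, had 0 UMIs in all 8457 barcodes, which for the members allows up to 1.2 CPM (3 counts). AQP2, the water channel of collecting duct principal cells, had 0 UMIs in the members. The label of a distal tubule thus rests on the transporters, WFDC2 and the transport genes described next, and not on UMOD. For the 43 deeper SLC12A1-side barcodes the transport genes bear it out less. Their calcium reabsorption list summed to 527 CPM (866 in the other barcodes) and their distal convoluted tubule list to 1229 CPM (1035). Their thick ascending limb list summed to 298 CPM (113), and WFDC2 stood at 728 CPM. The labels of the series name germ cells as the cell type of the library, while the germ cell list summed to 35.9 CPM in the members and 296 CPM in the others.

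Compared with the other barcodes, 641 of 8720 genes with at least 20 CPM in the higher group were at least 2-fold higher in the members (7.35%) and 938 were at least 2-fold lower (10.8%), with a median log2 ratio of -0.06 over all tested. In the thick ascending limb list 9 of 12 tested genes were at least 2-fold higher and 1 lower (median log2 2.94). In the distal convoluted tubule list these were 10 and 0 of 15 (median 2.15), and in the calcium reabsorption list 4 and 0 of 7 (median 1.96). The 2 transporters themselves are left out of all such counts. Among the genes with high ratios was KCNJ1, the apical potassium channel ROMK, at 82.7 against 1.09 CPM. FXYD2, a regulatory subunit of the sodium pump, stood at 492 against 25.9 CPM. EGF, a growth factor made in the distal nephron, stood at 302 against 16.8 CPM.

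The SLC12A3 side was rich in genes of calcium transport. S100G, the cytosolic calcium carrier calbindin-D9k, stood at 28225 CPM (27770.4 to 28685) on the SLC12A3 side, 2019 CPM in the shallower and 281 CPM in the deeper barcodes of the SLC12A1 side, and 483 CPM in the other barcodes. It was found in 124 of the 131 SLC12A3-side barcodes, and at 1000 UMIs in 88.5% of them, 41% of the SLC12A1 side and 20.2% of endothelial barcodes. With such a share in endothelial barcodes, a single S100G UMI was not read as expression. SLC8A1, the sodium and calcium exchanger NCX1 of the basolateral membrane, stood at 1481 CPM on the SLC12A3 side, 27.2 CPM in the shallower and 6.3 CPM in the deeper SLC12A1-side barcodes. CALB1, the calcium carrier calbindin-D28k, stood at 215 CPM on the SLC12A3 side from 13 barcodes and had 0 UMIs on the SLC12A1 side, at least 141-fold higher against a floor of 3 counts over the side, and at least 15.8-fold against the shallower barcodes. The calcium entry channel TRPV5 was close to absent, with 4 UMIs on the SLC12A3 side and 0 on the other. PTH1R, the parathyroid hormone receptor, went the other way, at 13.4 CPM on the SLC12A3 side and 127 CPM in the shallower SLC12A1-side barcodes. In the members as a whole its log2 ratio over the other barcodes was -0.15. It was at least 2-fold lower in the members than in proximal tubule barcodes, defined by LRP2 and CUBN.

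Between the sides, 1015 of 8445 tested genes were at least 2-fold higher on the SLC12A3 side (12%) and 2450 on the SLC12A1 side (29%), with a median log2 ratio of -0.45. Against the shallower SLC12A1-side barcodes alone these were 1121 (14.1%) and 1463 (18.4%) of 7968, with a median of -0.13. The intervals of 587 of those 1121 and 909 of those 1463 did not include a ratio of 1. The calcium reabsorption list had 5 of 8 tested genes at least 2-fold higher on the SLC12A3 side (median log2 3.41), and 6 of 8 against the shallower barcodes (median 2.36). In each of these comparisons 1 gene, PTH1R, was at least 2-fold lower.

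Several genes of magnesium handling and of NCC regulation were also higher on the SLC12A3 side. TRPM6, the apical magnesium channel, stood at 338 CPM on the SLC12A3 side, 13.6 CPM (3 UMIs) in the shallower and 10.9 CPM in the deeper SLC12A1-side barcodes. Its relative TRPM7 stood at 1404, 163 and 145 CPM in the same order. CNNM2, a basolateral magnesium protein, stood at 1031, 45.4 and 73.9 CPM. The kinase genes WNK1 and WNK4, which regulate NCC, and KLHL3, the ubiquitin ligase adaptor that turns WNK kinases over, were higher on the SLC12A3 side too. KLHL3 stood at 442 CPM there and 30.5 CPM on the SLC12A1 side, 14.5-fold higher (10.9 to 19.6), WNK1 was 4.25-fold higher (3.79 to 4.77) and WNK4 2.34-fold higher (1.7 to 3.21). KCNJ10, the basolateral potassium channel of this segment, was 10.2-fold higher (5.75 to 19). Of the 16 tested genes of the distal convoluted tubule list, 11 were at least 2-fold higher on the SLC12A3 side (median 2.13) and 1 was lower, SLC41A3, a magnesium carrier, at 7.68 CPM against 21.4 CPM on the SLC12A1 side and 31.8 CPM in its shallower barcodes. Against the shallower barcodes alone 8 of 16 were higher (median 0.99). EGF and FXYD2 were high in those as well: EGF stood at 1149 CPM on the SLC12A3 side, 563 CPM in the shallower and 16 CPM in the deeper barcodes, and FXYD2 at 1790.0, 926 and 52.1 CPM.

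**Figure D2:**
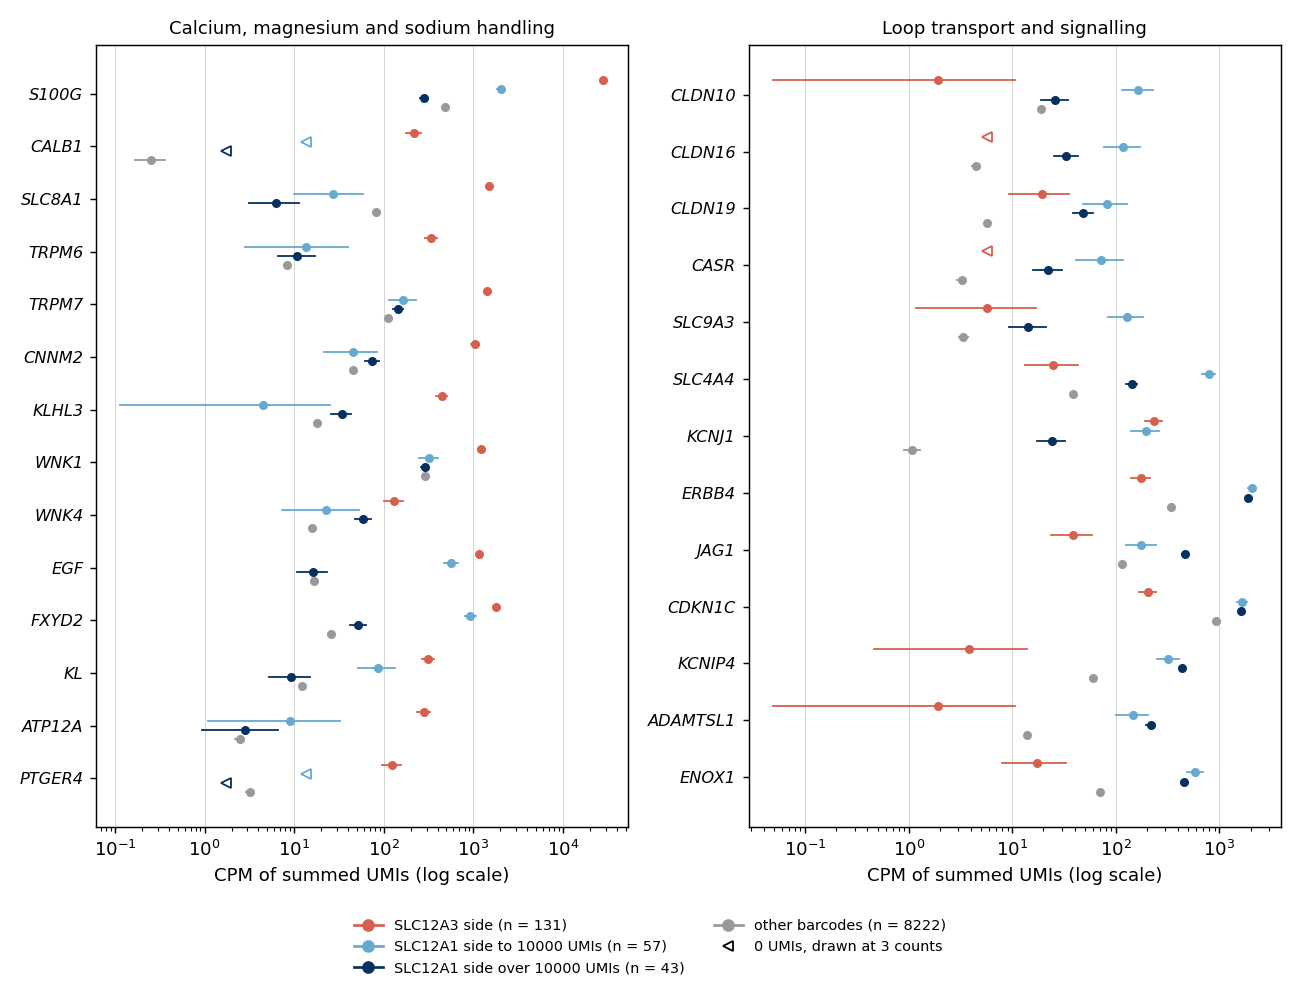
CPM of summed UMIs (log scale) of the named genes on the SLC12A3 side, in the shallower and deeper barcodes of the SLC12A1 side and in the other barcodes, with 95% counting intervals; an open triangle stands for 0 UMIs and is drawn at the floor of 3 counts. SLC8A1, TRPM6, TRPM7 and CNNM2 lie far to the right for the SLC12A3 side alone, CLDN10, CLDN16, CASR and SLC9A3 for the shallower SLC12A1-side barcodes, and KCNJ1, EGF and FXYD2 for both of these groups but not for the deeper barcodes.

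Genes of aldosterone-driven sodium uptake, which in the adult kidney mark the late distal convoluted tubule and the connecting tubule, were found on the SLC12A3 side. NR3C2, the mineralocorticoid receptor, stood at 576 CPM there against 191 CPM in the shallower SLC12A1-side barcodes. SCNN1A, the alpha subunit of the epithelial sodium channel, stood at 138 and 118 CPM, a ratio of 1.17 (0.739 to 1.91) that counting error alone could give. SCNN1B, the beta subunit, had 12 UMIs in 9 barcodes of the SLC12A3 side and 0 on the other. HSD11B2, the enzyme that shields the receptor from cortisol, had 20 UMIs in 7 barcodes against 1. Of those 20 UMIs, 10 came from 1 barcode. The sodium channel and aldosterone list had 6 of 10 tested genes at least 2-fold higher on the SLC12A3 side and 1 lower, TSC22D3 (median 2.55). Against the shallower barcodes 7 of 10 were higher and 0 lower (median 0.99), with SCNN1A not among the 7. Over the other barcodes the members as a whole had 2 of 7 higher and 1 lower, SLC12A2 (median 0.20).

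Other genes with high ratios for the SLC12A3 side were PTGER4, a receptor of prostaglandin E2, with 64 UMIs in 45 barcodes against 0 (at least 80.6-fold, or 9.03-fold against the shallower barcodes). The next values compare with the whole SLC12A1 side. ATP12A, a proton and potassium pump, stood at 280.4 against 3.56 CPM. DEFB1, the epithelial antimicrobial peptide beta-defensin 1, stood at 2092 against 47.3 CPM, and A2M, a protease inhibitor, at 1060.2 against 22.9 CPM. TMEM52B and WDR72 stood at 872 and 582 CPM against 26.9 and 18.3. CDH18, a cadherin, and MYOM1, a myomesin, were found in 30 and 35 SLC12A3-side barcodes and in 1 and 3 on the other side. In the collecting or nephric duct list 4 of 5 tested genes were at least 2-fold higher on the SLC12A3 side, namely GATA3, KRT19, TFCP2L1 and CALB1 (median 2.63). The fifth, HOXB7, was at least 2-fold lower. Of the 19 genes of the list, 10 had 0 UMIs on the SLC12A3 side. In the intercalated cell list 2 of 4 tested genes were at least 2-fold higher there (median 1.98), both of them subunits of the proton pump. Against the shallower barcodes 1 of 4 was higher, ATP6V1B1 (median 0.68). ATP6V1B1 stood at 102 CPM on the SLC12A3 side and 40.8 CPM in the shallower SLC12A1-side barcodes.

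The SLC12A3 side was itself uneven in CALB1, which was compared after its values were seen. All 112 CALB1 UMIs of the SLC12A3 side lay in 13 barcodes (median 4884 UMIs), and 118 barcodes had none (median 3359). SLC8A1 stood at 4374 CPM in the barcodes with CALB1 and 1099.8 CPM in those without, 3.98-fold higher (3.42 to 4.62), and ATP12A at 644 and 233 CPM, 2.77-fold higher (1.87 to 4.03). EGF, KLHL3, DEFB1 and CDH18 went the other way. EGF stood at 512 and 1232 CPM, KLHL3 at 215 and 472, DEFB1 at 990.4 and 2236, and CDH18 at 33 (2 UMIs) and 196. The ratio of SLC12A3 itself was 0.835 (0.680 to 1.02), of S100G 1.09 (1.04 to 1.14), of TRPM6 0.812 (0.461 to 1.34) and of GATA3 1.17 (0.535 to 2.29). The barcodes with CALB1 thus had more of the calcium exchanger and less EGF, KLHL3 and DEFB1, with the intervals of SLC12A3, TRPM6 and GATA3 spanning a ratio of 1.

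Paracellular and sensing genes of the thick ascending limb were highest in the shallower barcodes of the SLC12A1 side, and lower in its deeper ones. CLDN16 and CLDN19 are the claudins through which this segment takes up calcium and magnesium between cells. They stood at 118 and 81.7 CPM in the shallower barcodes, 33.2 and 48.7 CPM in the deeper ones, and 0 and 19.2 CPM on the SLC12A3 side. CLDN10, which makes a sodium pore in the same segment, stood at 163, 25.8 and 1.92 CPM (1 UMI). Proximal tubule barcodes, defined by LRP2 and CUBN, had 103 CPM of CLDN10. CASR, the calcium-sensing receptor, had 55 UMIs in 20 SLC12A1-side barcodes and 0 on the SLC12A3 side, at least 4.85-fold. SLC9A3, the apical sodium and proton exchanger, stood at 127 CPM in the shallower barcodes and 5.76 CPM (3 UMIs) on the SLC12A3 side, and the bicarbonate transporter SLC4A4 at 789 and 25 CPM. Both of the latter genes are also made in the proximal tubule, where the proximal barcodes had 27.9 and 258 CPM.

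Not every gene of the thick ascending limb list stood with SLC12A1. KCNJ1 was 5.38-fold higher on the SLC12A3 side than on the whole SLC12A1 side (4.04 to 7.18), but the ratio was 1.19 (0.835 to 1.73) against its shallower barcodes, where it stood at 195 CPM, and the deeper ones had 24 CPM. BSND, or barttin, stood at 61.5 CPM on the SLC12A3 side and 4.07 CPM on the SLC12A1 side. Over the list, 6 of 12 tested genes were at least 2-fold higher on the SLC12A3 side and 5 on the SLC12A1 side (median 0.36). Against the shallower barcodes these were 3 and 7 of 14 (median -0.77), so the balance of this list depended on the deeper barcodes.

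Of the genes higher on the SLC12A1 side, ERBB4, CDKN1C and JAG1 come from the gene lists, and BMPR1B and those after it are among the 12 highest ratios at 100 CPM or more. ERBB4, a receptor of neuregulins and related growth factors, stood at 1905 CPM on the SLC12A1 side and 175 CPM on the SLC12A3 side, 10.9-fold higher (8.85 to 13.6), with 2073 CPM in its shallower and 1884 CPM in its deeper barcodes. CDKN1C, the cell cycle inhibitor p57, stood at 1612 against 204 CPM, with 1660.5 CPM in the shallower and 1606 CPM in the deeper barcodes. JAG1, a Notch ligand, stood at 433 against 38.4 CPM, and BMPR1B, a receptor of bone morphogenetic proteins, at 288 against 5.76 CPM (3 UMIs). KCNIP4, a potassium channel partner, stood at 421 against 3.84 CPM (2 UMIs), ADAMTSL1, a matrix protein, at 209 against 1.92 (1 UMI), CAPN6, a calpain, at 188 against 5.76 (3 UMIs), and ENOX1 at 470.2 against 17.3 CPM. In the shallower barcodes the 71 KCNIP4 UMIs came from 7 of 57, while ENOX1 was found in 33. Further genes were RYR3, PCDH19, AMOT, COL2A1, KIF5C and PAPPA, at 135, 112, 439, 142, 190.1 and 113 CPM over the whole SLC12A1 side, against 0 to 15.4 CPM on the SLC12A3 side. The deeper barcodes weigh most in these levels. Of these genes only PAPPA was also among the 12 highest ratios against the shallower barcodes. Among barcodes of 1000 to 10000 UMIs, COL2A1 and RYR3 were lower in the members than in the others (log2 -0.85 and -0.14).

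The shallower and deeper barcodes of the SLC12A1 side also differed from each other. In the deeper ones 1760 of 8440 tested genes were at least 2-fold higher (20.9%) and 652 were lower (7.73%), with a median log2 ratio of 0.34. Several transport lists were lower there, with 10 of 13 tested genes of the thick ascending limb list (median -2.66), 4 of 6 of the calcium list (median -2.26) and 4 of 6 of the sodium pump list (median -1.36), and 0 higher in each. Others were divided: the distal convoluted tubule list had 5 lower and 2 higher (KLHL3 and WNK4) of 15 (median -0.31), and the sodium channel and aldosterone list 2 lower and 2 higher of 7 (median -0.28). SLC12A1 itself stood at 2432 CPM in the shallower and 1049 CPM in the deeper barcodes, with medians of 26.1 and 8.99 transporter UMIs per 10000. The rule touches these levels, because its minimum of 3 UMIs asks for a higher share of a shallow barcode than of a deep one. Among genes chosen after their values were seen, DLL1, SOX4, HES1, SOX9 and JAG1 were higher in the deeper ones. DLL1, a Notch ligand of the developing nephron, had 132 UMIs in 32 of 43 deeper barcodes (75.6 CPM) and 0 in the 57 shallower ones, at least 5.55-fold higher. SOX4 stood at 894 against 218 CPM, the Notch target HES1 at 636 against 199.6, SOX9 at 153 against 40.8 and JAG1 at 465 against 177 CPM. In the Notch list 4 of 9 tested genes were at least 2-fold higher and 0 lower (median 0.61).

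The deeper barcodes differed among themselves by the presence of KCNJ1, a split chosen after the values were seen. KCNJ1 was found in 9 of them (median 38900 UMIs) and not in 34 (median 28126.5). The 9 with KCNJ1 had 582 against 21.9 CPM of SLC4A4 and 123 against 8.75 CPM of CLDN16. EGF stood at 69.4 against 1.46 CPM (2 UMIs), CASR at 82.8 against 5.83, and TFAP2B at 256 against 44.5 CPM. The 34 without KCNJ1 had more DLL1, 4.87-fold higher (2.3 to 12.4), more JAG1, 3.14-fold (2.44 to 4.11), more KCNIP4, 7.12-fold (4.88 to 10.8), and more TOP2A, a gene of dividing cells, 2.04-fold (1.59 to 2.65). IRX1, IRX2, SIM1 and POU3F3 had ratios whose intervals spanned 1. CLDN10 did not go with the other transport genes, at 16 against 28.4 CPM, a ratio of 0.564 (0.195 to 1.34). The SLC9A3 UMIs came from 3 of the 9 barcodes with KCNJ1. WFDC2 was found in all 9 and in 33 of 34, but stood at 1191 against 601 CPM, 1.98-fold higher in the 9 (1.76 to 2.22). SLC12A1 itself was 2.15-fold higher in the 9 (1.95 to 2.36), and S100G 7.94-fold (6.55 to 9.67).

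**Figure D3:**
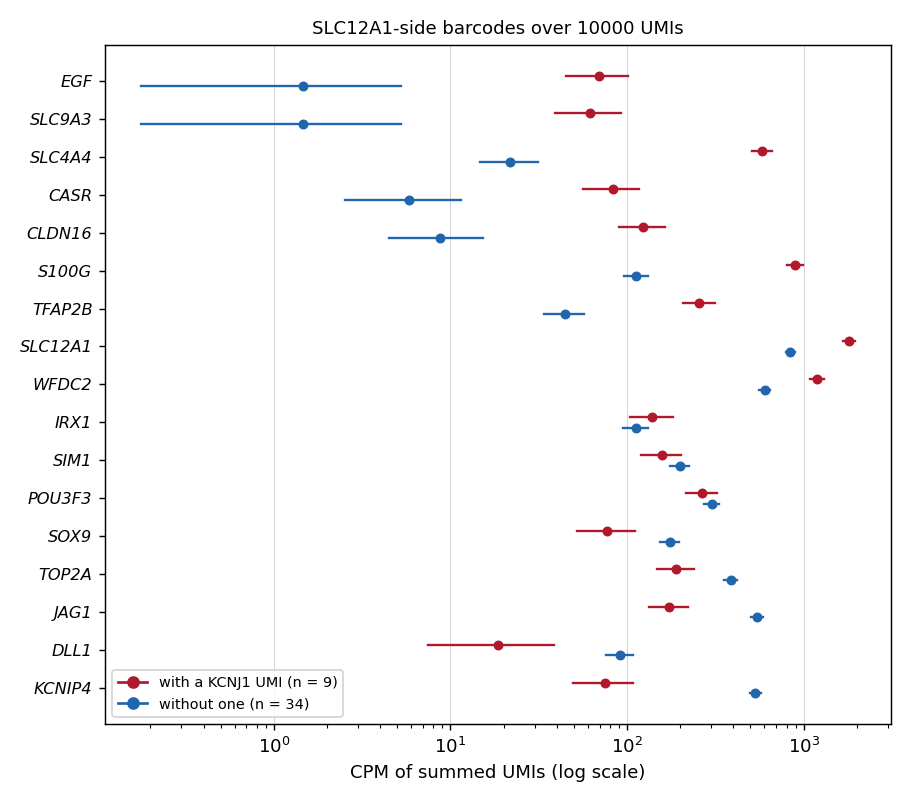
CPM of summed UMIs (log scale) with 95% counting intervals in the 43 SLC12A1-side barcodes over 10000 UMIs, split by the presence of a KCNJ1 UMI. EGF, SLC9A3, SLC4A4, CASR and CLDN16 lie to the right for the 9 barcodes with KCNJ1, DLL1, JAG1 and KCNIP4 for the 34 without it, and IRX1, SIM1 and POU3F3 lie close together.

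A common set of transcription factors set the members apart from the other barcodes, and a second set split the sides. Of 28 tested genes of the nephric list, 19 were at least 2-fold higher in the members and 5 lower (median log2 2.14). Among genes with a symbol above 100 CPM, and with the 2 transporters left out, the highest ratio belonged to SIM1, a helix-loop-helix factor. SIM1 stood at 169 against 2.03 CPM, 83.1-fold (70.8 to 97.7). It was found in 55 SLC12A1-side and 44 SLC12A3-side barcodes, and the ratio between the SLC12A3 side and the shallower SLC12A1-side barcodes was 0.953 (0.601 to 1.54). POU3F3, which is needed for the loop of Henle and the distal tubule, stood at 236 against 4.55 CPM. TFAP2A, LHX1, GRHL2, ESRRG and MECOM were also high on both sides: TFAP2A stood at 24.4 and 34.6 CPM, LHX1 at 146 and 119, GRHL2 at 24.4 and 40.3, ESRRG at 1513 and 1308, and MECOM at 708 and 484 CPM on the SLC12A1 and the SLC12A3 side. In the other barcodes these 5 stood at 0.762, 23.5, 1.75, 326 and 68.7 CPM. On the SLC12A1 side TFAP2A and LHX1 were at least 2-fold lower in the shallower than in the deeper barcodes. TFAP2A was also at least 2-fold lower in the shallower barcodes than on the SLC12A3 side.

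Of the Iroquois genes, IRX1 and IRX2 stood on the SLC12A1 side under both comparisons, and IRX3 under the whole-side comparison only. IRX1 had 220 UMIs in 36 barcodes of that side (112 CPM, 97.5 to 128) and 0 on the SLC12A3 side, at least 19.4-fold higher, or 11-fold for the shallower barcodes alone. IRX2 had 145 UMIs against 0 (at least 12.8-fold, or 5.51-fold), and IRX3 47 against 0 (at least 4.15-fold). In the shallower barcodes IRX3 had 3 UMIs, too few for a fold, and its ratio lost its direction with sides taken after thinning (log2 0.022). In the members over the others IRX1 was 68.6-fold and IRX2 28.5-fold higher, but IRX3 1.4-fold. IRX3 stood at 23.9 CPM on the SLC12A1 side and 63.3 CPM in endothelial barcodes. TFAP2B stood at 92 CPM on the SLC12A1 side and 19.2 CPM on the SLC12A3 side, the renal regulators PAX2 and SALL1 at 94.6 and 124 against 17.3 and 23 CPM, and EMX2 at 99.6 against 15.4 CPM.

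EMX1 and GATA3 stood on the opposite side. EMX1 stood at 179 CPM on the SLC12A3 side and 7.12 CPM on the SLC12A1 side, 25.1-fold higher (14.2 to 47.7), and was found in 52 and 8 barcodes. Its close relative EMX2 thus had the reverse pattern. GATA3, a factor of the nephric duct and of the distal nephron, stood at 144 and 2.54 CPM, 56.7-fold higher (23.2 to 179.6), in 56 and 5 barcodes. At 1000 UMIs a GATA3 UMI was found in 16.8% of SLC12A3-side barcodes (10.8 to 24.3), 0% of SLC12A1-side barcodes and 1.81% of endothelial barcodes. For EMX1 the shares were 18.3%, 1.0% and 0%. TFCP2L1, a factor of the distal nephron and collecting duct, stood at 257 against 41.7 CPM. Over the list, 6 of 29 tested genes were at least 2-fold higher on the SLC12A3 side and 14 on the SLC12A1 side (median -0.92), and against the shallower barcodes 7 and 7 of 26 (median -0.01).

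**Figure D4:**
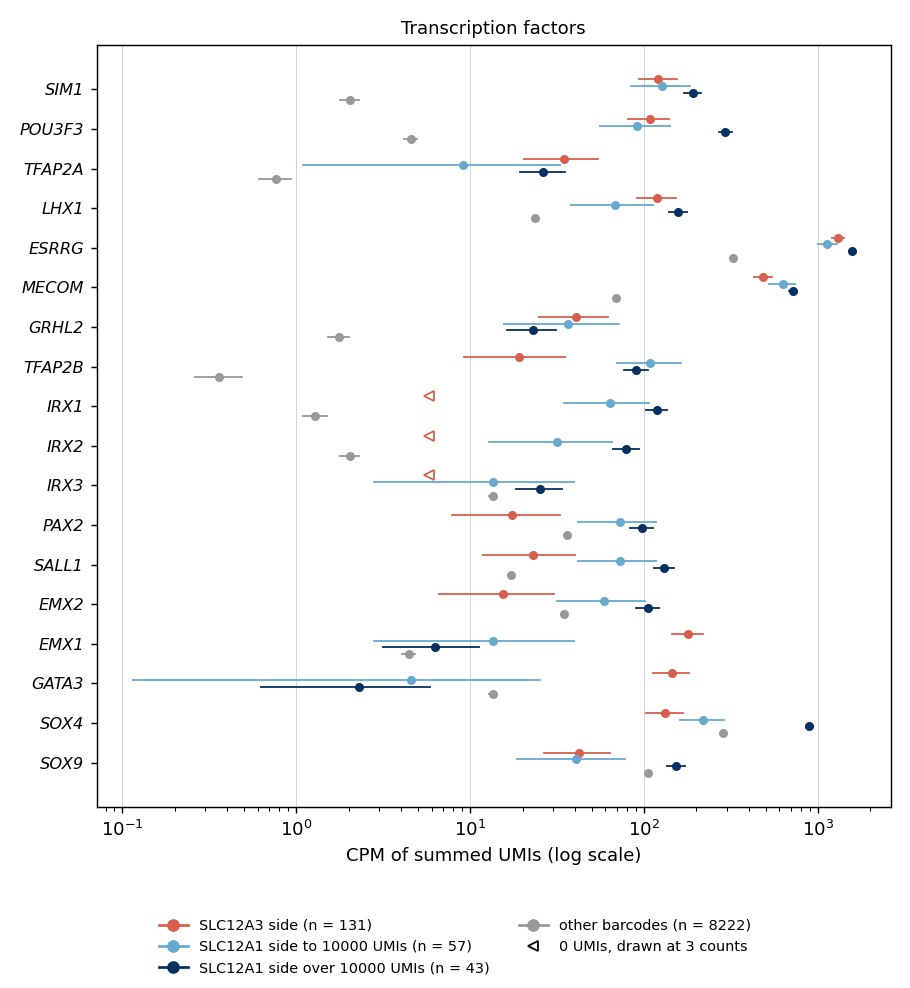
CPM of summed UMIs (log scale) of transcription factor genes in the 4 groups of barcodes, with 95% counting intervals and open triangles for 0 UMIs at the floor of 3 counts. From SIM1 to GRHL2 the SLC12A3 side and both parts of the SLC12A1 side lie above the other barcodes. TFAP2A is at least 2-fold lower in the shallower than in the deeper part. IRX1, IRX2 and IRX3 have 0 UMIs on the SLC12A3 side, and EMX1 and GATA3 are highest there.

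The claudins split in the same manner as the factors. Of 11 tested, 8 were at least 2-fold higher in the members than in the others and 1 lower, the endothelial CLDN5 (median log2 2.64). CLDN4 and CLDN8, the pair of the aldosterone-sensitive distal nephron, stood at 198 and 99.9 CPM on the SLC12A3 side and 33.6 and 1.53 CPM on the SLC12A1 side. CLDN3 and CLDN6 stood at 35.6 and 91 CPM on the SLC12A1 side and both at 9.6 CPM on the SLC12A3 side. CLDN7 was found on both, at 98.1 and 51.9 CPM. Between the sides 3 of 10 were at least 2-fold higher on the SLC12A3 side and 6 on the SLC12A1 side (median -1.67), and against the shallower barcodes 2 and 6. In the list of epithelial junctions and keratins 9 of 19 were at least 2-fold higher in the members (median 0.90). EPCAM, the epithelial adhesion molecule, stood at 265 and 296 CPM on the 2 sides and 52.2 CPM in the others. CDH16, the kidney-specific cadherin, stood at 489.7 CPM on the SLC12A3 side, 349 CPM in the shallower and 98.5 CPM in the deeper SLC12A1-side barcodes. MUC1, a mucin of the distal nephron surface, stood at 90.3 CPM on the SLC12A3 side against 12.7 CPM.

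ATP1B1 of the sodium pump and genes of oxidative metabolism were higher in the members, most of all on the SLC12A3 side. ATP1B1, the beta subunit of the pump, stood at 3728 CPM there, 1411 CPM in the shallower and 339 CPM in the deeper SLC12A1-side barcodes. The other barcodes had 174 CPM. In the sodium pump list 3 of 7 tested genes were at least 2-fold higher in the members and 2 lower, FXYD5 and FXYD6, and the list's median log2 ratio was -0.73. In the list of oxidative metabolism 17 of 44 were at least 2-fold higher in the members and 0 lower (median 0.79). Between the sides 32 of 45 were at least 2-fold higher on the SLC12A3 side (median 1.32), and against the shallower barcodes 14 (median 0.72), with 0 lower in both. PPARGC1A, the coactivator of mitochondrial genes, stood at 914 CPM on the SLC12A3 side and 259 CPM on the SLC12A1 side. CKB, the creatine kinase of transporting epithelia, stood at 878 and 141 CPM, and ATP5F1B, a subunit of the ATP synthase, at 1485 and 513 CPM. Against proximal tubule barcodes, another epithelium rich in mitochondria, few genes of the list differed: 1 of 44 was at least 2-fold higher in the members and 1 lower, where 6.38% and 10.2% of all 8513 tested were. In the glycolysis list 1 of 17 was higher in the members than in the others and 1 lower (median 0.01).

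Cell cycle genes were low on the SLC12A3 side, and those of G2 and M phase were high in the deeper SLC12A1-side barcodes. At 1000 UMIs per barcode, 3 or more UMIs of the G2 and M phase list were found in 6.11% of SLC12A3-side barcodes (2.67 to 11.7), 12.3% of the shallower (5.08 to 23.7) and 39.5% of the deeper SLC12A1-side barcodes (25 to 55.6). The shares were 9.28% in proximal tubule barcodes, 16.2% in endothelial barcodes and 22.8% in the others. Without thinning they were 16%, 28.1%, 95.3%, 48.7%, 67.5% and 67.2% in the same order. For the S phase list the thinned shares were 3.05%, 5.26%, 14%, 6.86%, 11.9% and 18.6%. On the SLC12A1 side 21 of 29 tested G2 and M phase genes were at least 2-fold higher in the deeper barcodes (median log2 1.18) and 13 of 23 S phase genes (median 1.26). Between the sides 25 of 28 and 19 of 21 were at least 2-fold higher on the SLC12A1 side, and against its shallower barcodes 11 of 22 and 7 of 16. Over all members the thinned shares were 14% (9.87 to 19.2) for G2 and M phase and 5.53% (2.98 to 9.27) for S phase, both below those of the other barcodes. In summed UMIs, of which the deeper barcodes hold the most, few genes of the lists differed from the other barcodes by 2-fold, with 1 of 29 and 2 of 23 at least 2-fold lower and 0 higher (medians -0.20 and -0.32).

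**Figure D5:**
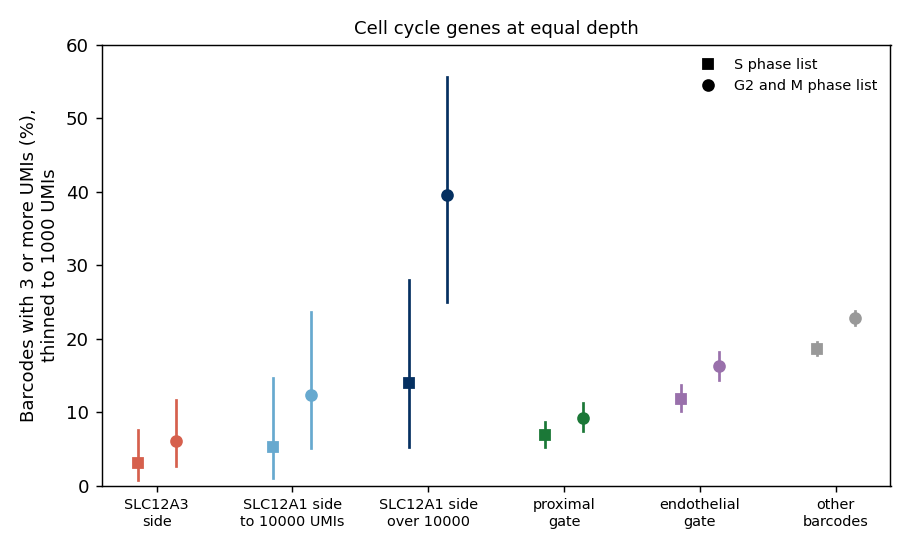
Percent of barcodes with 3 or more UMIs of the S phase list (squares) and the G2 and M phase list (circles) after each barcode was thinned to 1000 UMIs, with Clopper-Pearson 95% intervals. Among the 6 groups drawn the SLC12A3 side is lowest for both lists, the deeper SLC12A1-side barcodes are highest for G2 and M phase (39.5%) and the other barcodes for S phase (18.6%).

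Markers of the other cell types of the tissue were low in the members. The endothelial list had 17 of 17 tested genes at least 2-fold lower (median log2 -3.65, summed level 128 against 1347 CPM), the stroma list 13 of 15 (-2.92, 574 against 2108 CPM) and the Sertoli list 9 of 10 (-3.00, 234 against 1105 CPM). The germ cell list had 6 of 6 lower (-3.96) and the erythroid list 5 of 5 (-4.67, 24.4 against 375 CPM). The leukocyte list had 1 tested gene, C1QA, which was lower (-1.61, 37.5 against 136 CPM), though the SLC12A3 side summed to 123 CPM with 18 C1QA UMIs in 4 barcodes. None of these lists had a gene at least 2-fold higher in the members. The podocyte list had 10 of 13 lower (-2.56), and CDKN1C made up 1312 of its 1661 CPM.

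Proximal tubule genes were lower in the members than in proximal tubule barcodes and not far from the library's level. Of 26 tested genes other than LRP2 and CUBN, which chose the proximal barcodes, 25 were at least 2-fold lower than there (median -3.40), and the whole list summed to 1023 CPM against 8298 CPM there and 1248 CPM in the others. Against the others 1 of 17 was higher, SLC4A4, and 4 were lower (median -0.58). The shallower SLC12A1-side barcodes had 2423 CPM of the list and the SLC12A3 side 699 CPM, and 17 of 20 tested genes were at least 2-fold lower on the SLC12A3 side of these 2 groups. The part of free RNA and of droplets with more than 1 cell in this was not tested. Of the 235 members, 40 also met the same kind of rule for another cell type, 23 of them for the proximal tubule (11 on each side and 1 mixed), 6 for Sertoli cells, 4 for stroma, 3 for endothelium, 3 for macrophages, 1 for germ cells and 0 for podocytes or erythroid cells. No doublet caller was run. Between the 2 libraries 38 barcode sequences were shared, and 0 of them belonged to a member.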

How the data were processed

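Each deposited matrix gives raw UMI counts (whole numbers) for every feature in each barcode. The matrices name Cell Ranger 7.1.0, per the file headers. Version 2.1.1 of that tool appears in the submitters' processing notes. A DNBelab C kit is described per the labels' protocols, although the barcodes have the form of another platform's. For build, annotation and intron counting, the entry is the same: not given in the sources used here. No genome was used. Of 21981 locus identifiers, 768 took symbols from a RefSeq gene table. UMIs were summed over barcodes and scaled to CPM, with exact Poisson intervals, exact conditional binomial intervals of ratios and Clopper-Pearson intervals of shares, at 95%, in Python 3.11.15 with scipy 1.17.1. These cover counting error only. In a median of ratios, a gene with 0 UMIs in 1 group was set to 3 counts. The ratio method was tested on simulated data. The library held 121994835 UMIs at 4 weeks and 154072833 at 8 weeks. Other cell types were taken with the members' rule on their own genes (stroma, at least 20 per 10000). Barcodes were thinned to 1000 UMIs by seeded draws. Members, the 25 gene lists and settings were chosen with earlier results of these data known. Named genes are the list members shown and those of highest or lowest ratio at 100 CPM or more. These were the 24 highest and 12 lowest over the others and the 12 highest per side. Only genes with a symbol were ranked, and for the sides the lower bound had to reach 2-fold. Others were named after their values were seen. Some results by these rules are not reported here.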

Additional observations from a re-analysis of the deposited data

How the results depend on the processing

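The share of barcodes that met the rule was 2.25% with at least 10 transporter UMIs per 10000, 2.18% with at least 5 UMIs, 2.32% without members that met another cell type's rule, and 3.82% among barcodes of 1000 to 10000 UMIs, a setting chosen after the data were seen. The SLC12A1 and SLC12A3 sides held 35.8% and 63.2% with at least 10 per 10000, 57.7% and 42.3% (0% mixed) with at least 10 UMIs, 34.3% and 64.3% after thinning to 1000 UMIs, and 30.3% and 67.6% at 1000 to 10000 UMIs. Genes at least 2-fold higher and lower in the members numbered 217 and 215 with a floor of 100 CPM, 1586 and 11617 with no floor but 3 UMIs, and 1002 and 1950 at 1000 to 10000 UMIs. With each barcode weighted equally 1720 were lower. Genes higher on the SLC12A3 and the SLC12A1 side numbered 335 and 799 with a floor of 100 CPM and 1850 and 5363 with no floor, and 1488 were higher on the SLC12A1 side at 1000 to 10000 UMIs. The other 101 of 126 recomputed shares and counts of genes moved by less than their interval or 1.5 times, as did 1152 of 1400 list counts. Log2 ratios of single genes were left out where both groups had at most 3 UMIs, and for genes named only to define other cell types. Of the 3101 recomputed, 11 were counted as changed in sign. At 1000 to 10000 UMIs those of members over others were -0.85 for COL2A1, -0.46 for DLL1, -0.14 for RYR3 and -0.058 for SOX4, and those of the SLC12A3 over the SLC12A1 side 0.32 for POU3F3, -0.70 for TRPV5 and -0.27 for CYP17A1. Between the sides they were also -0.12 for CYP17A1 with barcodes weighted equally, 0.029 for CLDN5 with at least 2.5 transporter UMIs per 10000, and 0.022 for FGF8 and for IRX3 with sides taken after thinning. Not every change of sign is among these 11. The log2 ratio of PTH1R in members over others went from -0.15 to 0.17 with at least 2.5 transporter UMIs per 10000. The causes were not tested. No paired analysis was possible because each stage is 1 library. With 1 library, no value here measures the spread between fetuses. The shallower SLC12A1-side barcodes hold 220419 UMIs, so 3 counts there are 13.6 CPM, and lower levels were not detectable.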

Other observations

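Lists of signalling genes were compared in the same manner, and their counts between the sides depended on the deeper SLC12A1-side barcodes. In the list of growth factors and receptors 8 of 25 tested genes were at least 2-fold higher in the members than in the other barcodes and 1 lower (median log2 0.73). Between the sides 5 of 26 were higher on the SLC12A3 side and 13 on the SLC12A1 side (median -0.91), where 12% and 29% of all genes tested were. Against the shallower SLC12A1-side barcodes these were 3 and 6 of 22 (median -0.60), where 14.1% and 18.4% of all genes tested were. MET, the receptor of hepatocyte growth factor, stood at 69.6 CPM on the SLC12A1 side and 23 CPM on the SLC12A3 side, and its ligand gene HGF at 18.8 and 55.7 CPM, which was 2.96-fold higher on the SLC12A3 side (1.76 to 4.95) but at a ratio of 0.944 (0.476 to 1.98) against the shallower SLC12A1-side barcodes. BMP7, a survival factor of nephron progenitors, stood at 202 and 78.7 CPM. GFRA1, a coreceptor of the factor GDNF, had 84 UMIs on the SLC12A1 side and 0 on the other, at least 7.41-fold. FGF8, a factor of early nephron formation, had 41 UMIs in 16 SLC12A1-side barcodes and 0 on the other side.

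In the WNT list 5 of 15 tested genes were at least 2-fold higher in the members and 3 lower (median 0.24), and 8 of 13 were higher on the SLC12A1 side against 1 on the SLC12A3 side (median -1.46). Against the shallower barcodes these were 3 and 1 of 9 (median -0.83). LGR5, a receptor of R-spondins, stood at 102 and 15.4 CPM, and the WNT effector LEF1 had 71 UMIs against 0. The Notch list had 3 of 8 higher in the members and 0 lower (median 0.48), and 6 of 9 were higher on the SLC12A1 side (median -1.31), but 2 of 7 against 1 on the SLC12A3 side with the shallower barcodes alone (median 0.02). Among the genes with the highest ratios over the other barcodes were STK32B, HOXD1, ARNT2, RAP1GAP2, GPR39, SKAP1, VEPH1, NTRK2, RPS6KA6 and CACNB4, 7.04 to 25.3-fold higher. The kinase gene STK32B stood at 101 against 4.0 CPM, and ARNT2, which encodes a partner protein of SIM1, at 563 against 37.1 CPM, on both sides (636 and 299.6 CPM). Of these 10 genes, VEPH1, RAP1GAP2 and CACNB4 stood higher on the SLC12A3 side than on the SLC12A1 side and the other 7 lower. Among genes with a symbol and at least 100 CPM in the other barcodes, the 3 lowest ratios belonged to CITED1 (2.4 against 108 CPM), the erythroid chaperone gene AHSP (4.79 against 198 CPM) and the steroid enzyme gene CYP17A1 (22.8 against 568 CPM).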
